A study of Mus musculus with 4 samples.

Results

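The Sox genes encode high-mobility-group transcription factors that accompany neural cells from progenitor to neuron, and 9 of them were examined here for NR2F1 signal: *Sox1*, *Sox2* and *Sox21* of the SoxB group, *Sox9* of the SoxE group, *Sox4*, *Sox11* and *Sox12* of the SoxC group, and *Sox5* and *Sox6* of the SoxD group. They were chosen by name among 21897 mouse protein-coding genes, by their known roles in neural development and with earlier results of these data known. NR2F1 (COUP-TF1) is an orphan nuclear receptor that binds DNA in the developing hindbrain. Single-cell CUT&Tag with an antibody against it lets a tethered transposase cut the DNA near the bound protein, so that each cut site in a called peak is a count of signal. The signal is binding near a gene and not that gene's expression.

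Mutant embryos were homozygous for the Fam5 single-nucleotide variant (*Fam5* snv/snv), a knock-in A-to-G change on mouse chromosome 6 in cRE2, a regulatory element near *Gata2*. They were compared with WT embryos. All carried the Isl1MN-GFP reporter, which marks motor neurons, and were taken at embryonic day 10.5 (E10.5). Rhombomere 4 (r4) was dissected, the hindbrain segment that makes facial branchial motor neurons and inner ear efferents, and cells were sorted for GFP. Each library was a pool of embryos, of 8 and 16 for *Fam5* snv/snv and of 26 and 26 for WT, and because sorting ended with a wider gate that also admitted cells without GFP, other cell types may be present. The study compared the genotypes to ask whether the variant changes NR2F1 binding in r4 motor neurons, and here the comparison was read at the Sox genes.

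In the neural tube, SOX1 and SOX2 hold dividing progenitors in their undifferentiated state, while SOX21, a SoxB protein that represses transcription, promotes their exit. SOX9 marks progenitors and is needed for the switch to glia. SOX4, SOX11 and SOX12 activate neuronal genes as cells leave the cycle. SOX5 and SOX6 have no transactivation domain of their own and act as partners of other Sox proteins, with roles in the timing of neuron and oligodendrocyte production.

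For each gene, the called peaks of the 4 libraries were merged where they shared at least 1 bp, and the merged regions within the gene body and 20 kb on either side formed its gene window. The 9 windows held 261 of the 263639 merged regions. Only 39 of them had a peak in all 4 libraries, 33 in 3, 52 in 2 and 137 in 1. All 39 also passed a minimum of 10 cut sites in 2 or more libraries and are called tested regions, against 35770 in the genome: 10 in SoxB windows, 2 at *Sox9*, 8 in SoxC windows and 19 in SoxD windows. Levels are given in CPM, the cut sites of a region scaled to the normalised total of its library over tested regions. A lower sum can come from fewer cells with signal or from less signal per cell, which cannot be told apart in these sums.

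The libraries differed in depth. Barcodes numbered 2274 and 2740 in *Fam5* snv/snv and 2572 and 1377 in WT. The median barcode held 2693.5 and 2984 cut sites in *Fam5* snv/snv and 879 and 1867 in WT. WT replicate 1 stood apart in its peaks, which covered 31.0 Mb, against 93.1 Mb in WT replicate 2 and 108 and 143 Mb in *Fam5* snv/snv. Between 3 and 12 barcodes were shared per pair of libraries. Of the markers of the dissected cells, the promoter region of *Isl1*, the motor neuron factor behind the reporter, had 32.4 and 31.1 CPM in *Fam5* snv/snv and 22.4 and 31.7 CPM in WT. That of *Hoxb1*, the Hox gene of r4, had 43.9 and 33.3 CPM in *Fam5* snv/snv and 31.9 and 24.3 CPM in WT. Of 7 endothelial genes 3 had one, with *Kdr*, *Cdh5*, *Pecam1* and *Tek* among those without, and their sum was 160.1 and 162 CPM in *Fam5* snv/snv and 117 and 98.5 CPM in WT. Of 5 blood genes 3 had one (*Gata1* and *Spi1* did not), with 84.2 and 77.3 CPM in *Fam5* snv/snv and 59.6 and 100.2 CPM in WT. All 5 neural crest and mesenchyme genes had one, with 105 and 87.4 CPM in *Fam5* snv/snv and 83.0 and 141 CPM in WT. The part of such cells in the results below was not tested.

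COUP-TF proteins bind the core AGGTCA, and with highest affinity a direct repeat of it with 1 base between (AGGTCANAGGTCA). The core on either strand was found in 31 of the 39 tested Sox regions (79.5%) and in 75.0% of all tested regions. The Sox regions were wider, with a median of 2463 bp against 1922 bp for all tested regions. Per kb of region they held fewer cores, 0.632 against 0.828. A repeat with at most 2 mismatches of its 12 defined bases, also on either strand and with overlapping matches counted, was found in 13 (33.3%), against 36.0% of all tested regions. With at most 1 mismatch it was found in 3 (7.69%), against 10.1% of all. These matches are a description of the letters present. The 3 closest repeats are shown because no other tested Sox region held one so near to the full repeat, the first upstream of *Sox4* and the others in introns of *Sox5*. Capitals mark the repeat, within 30 bases on each side, on GRCm38.p6. Positions are counted from 1 at the 5′ end of the repeat.
*Sox4* upstream, chr13:28958248-28958320, plus strand: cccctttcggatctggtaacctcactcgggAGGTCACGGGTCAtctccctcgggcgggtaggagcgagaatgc
*Sox5* intron, chr6:144757618-144757690, minus strand: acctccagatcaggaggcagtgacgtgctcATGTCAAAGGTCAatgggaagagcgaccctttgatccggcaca
*Sox5* intron, chr6:144236761-144236833, minus strand: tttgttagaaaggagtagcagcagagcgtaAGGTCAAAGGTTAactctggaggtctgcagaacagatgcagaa
The *Sox4* repeat matched at 11 of 12 bases, with the substitution A8G, and lay at -4571 bp from the *Sox4* start. The *Sox5* repeats also matched at 11, with G2T and with C12T. Of 3115 tested regions within 10% of the width of the *Sox4* region, 14.0% held a repeat this close. For the *Sox5* regions this share was 14.6% of 2940 and 5.25% of 1982.

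In the RefSeq table of promoters (GRCm38.p6, 250 bases before to 50 after a start), 8 of the 9 genes had 13 entries, and 4 of these held the core on either strand, against 16.3% of all 32851 promoters. The 3 that lay in a tested region over a start are printed up to the start, since the results below turn on those regions. Capitals mark the core, read as TGACCT where it lies on the other strand.
*Sox2*, chr3:34649745-34649994, plus strand: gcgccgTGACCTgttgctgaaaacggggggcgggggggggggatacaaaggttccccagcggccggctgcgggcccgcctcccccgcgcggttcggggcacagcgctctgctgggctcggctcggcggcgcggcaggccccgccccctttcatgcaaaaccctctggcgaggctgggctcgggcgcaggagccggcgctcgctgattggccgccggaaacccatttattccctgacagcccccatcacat
*Sox4*, chr13:28953700-28953949, minus strand: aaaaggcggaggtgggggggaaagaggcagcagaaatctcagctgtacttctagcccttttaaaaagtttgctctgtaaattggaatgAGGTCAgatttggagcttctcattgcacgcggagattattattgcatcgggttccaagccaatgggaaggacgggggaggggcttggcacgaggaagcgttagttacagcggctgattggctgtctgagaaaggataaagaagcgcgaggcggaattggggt
*Sox6*, chr7:116031048-116031297, minus strand: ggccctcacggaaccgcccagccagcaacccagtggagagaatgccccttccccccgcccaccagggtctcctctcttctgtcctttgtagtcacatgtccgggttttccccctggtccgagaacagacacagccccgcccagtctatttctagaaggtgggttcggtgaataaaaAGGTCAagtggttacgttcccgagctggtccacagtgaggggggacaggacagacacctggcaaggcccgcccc
The fourth, another *Sox6* start, lay in no tested region. The tested region over the *Sox12* start carried the highest mean signal of the promoter regions of the 9 genes. It had no core in its RefSeq promoter but 4 within its full width. Of tested regions of like width, 97.4% had at least 1 core. The regions over the *Sox21* and *Sox9* starts held none in their full width, against 90.4% and 89.1% of tested regions of like width.

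At promoters of the 9 genes, the 3 highest mean NR2F1 levels were those of the SoxC genes. This held for *Sox12* and *Sox11* in each library and for *Sox4* in 3 of 4. The promoter region of a gene is the tested region within 1 kb of a coding start, the highest where there were several. All 9 genes had one, and their mean levels over the 4 libraries ordered as *Sox12*, *Sox11*, *Sox4*, *Sox1*, *Sox21*, *Sox2*, *Sox6*, *Sox9* and *Sox5*. The median of these 9 was 34.6 CPM and that of all 12929 tested promoter regions was 31.3 CPM.

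*Sox12*, which encodes the weakest activator of the SoxC proteins, had 152 and 136 CPM in *Fam5* snv/snv and 248 and 136 CPM in WT at its promoter region (chr2:152395195-152400514). These came from 1115 and 1073 cut sites in *Fam5* snv/snv and 709 and 387 in WT. WT replicate 1 was the highest library and the other 3 lay close together, so the genotypes overlapped. The region ranked 280 of 12929 promoter regions, in the top 2.17%.

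*Sox11*, which with *Sox4* drives pan-neuronal genes, had 72.2 and 76.6 CPM in *Fam5* snv/snv and 82.0 and 89.7 CPM in WT over its start (chr12:27341003-27344777). Both *Fam5* snv/snv libraries lay below both WT libraries. The region held 74.7% and 64.6% of all cut sites in the *Sox11* window in *Fam5* snv/snv and 91.4% and 69.3% in WT. The highest region away from the start, within the single exon and 2791 bp or more downstream, had 9.43 and 8.98 CPM in *Fam5* snv/snv and 7.71 and 9.85 CPM in WT. Most of the *Sox11* signal was thus at its promoter in each library.

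*Sox4* differed from its relatives in that its promoter was not its strongest region. The region over the start (chr13:28951781-28955045) had 56.0 and 55.4 CPM in *Fam5* snv/snv and 55.0 and 36.2 CPM in WT. A region that began 3252 bp upstream (chr13:28956965-28960212), the one with the repeat printed first above, had 97.5 and 106 CPM in *Fam5* snv/snv and 172 and 107 CPM in WT. It ranked 877 of 35770 tested regions. Within a library it held 1.74 and 1.91 times the cut sites of the promoter region in *Fam5* snv/snv and 3.12 and 2.96 times in WT. Per kb of called peak the ratio was 1.31 and 1.43 in *Fam5* snv/snv and 1.70 and 2.73 in WT, so the order held in 4 of 4 libraries by total and by density. No test is given, since 4 libraries are too few for an exact sign-flip test to reach 0.05.

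*Sox1*, a SoxB progenitor factor, had 39.6 and 33.1 CPM in *Fam5* snv/snv and 43.8 and 48.5 CPM in WT over its start (chr8:12394683-12397881). Its largest region was a broad one upstream (chr8:12382089-12389466) that spans the annotated start of *Sox1ot*, a noncoding transcript overlapping *Sox1*. It had 76.8 and 61.5 CPM in *Fam5* snv/snv and 38.5 and 73.9 CPM in WT. WT replicate 1, with 2197 bp of called peak there against 5758 bp in WT replicate 2 and 7344 and 6700 bp in *Fam5* snv/snv, was the lowest. Per kb of called peak, the promoter region was the denser of these in all 4 libraries.

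*Sox2*, the SoxB factor most widely used to mark neural progenitors, had 33.9 and 25.7 CPM in *Fam5* snv/snv and 29.4 and 46.1 CPM in WT at its promoter region (chr3:34647766-34651512), which lies within the long noncoding transcript *Sox2ot*. *Sox21* had 27.8 and 29.0 CPM in *Fam5* snv/snv and 35.4 and 46.4 CPM in WT (chr14:118234076-118237457). *Sox9* had 26.5 and 23.4 CPM in *Fam5* snv/snv and 34.0 and 32.4 CPM in WT (chr11:112780955-112784135). At *Sox21* and *Sox9* both *Fam5* snv/snv libraries lay below both WT libraries, and at *Sox2* the genotypes overlapped.

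*Sox5* and *Sox6* had lower mean promoter levels than the 3 SoxB genes, with overlap across libraries. The *Sox5* region over a coding start (chr6:144208763-144211407) had 25.0 and 27.3 CPM in *Fam5* snv/snv and 29.4 and 30.2 CPM in WT. The *Sox6* region (chr7:116029996-116034917) had 33.5 and 21.5 CPM in *Fam5* snv/snv and 18.2 and 49.9 CPM in WT, the widest relative spread of any member promoter. A second *Sox6* region over a start (chr7:116038590-116040850), shared with the divergent gene *1110004F10Rik*, had 14.2 and 13.5 CPM in *Fam5* snv/snv and 16.1 and 8.09 CPM in WT.

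The order among promoters had few clear steps. *Sox12* lay above every other member in each library. *Sox11* was second in each library. *Sox4* came next in 3 of 4 libraries. In WT replicate 2 it had 36.2 CPM, below *Sox6* (49.9 CPM), *Sox1* (48.5 CPM), *Sox21* (46.4 CPM) and *Sox2* (46.1 CPM). The remaining promoters, at means of 28.0 to 41.3 CPM, overlapped across libraries.

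**Figure D1:**
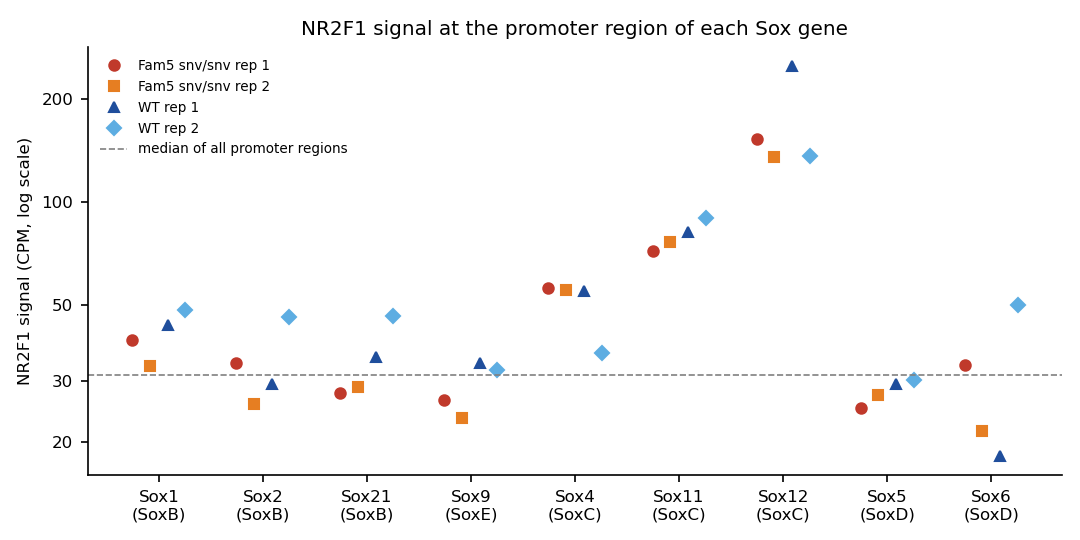
NR2F1 signal (CPM, log axis) at the promoter region of each Sox gene, with 1 point per library (*Fam5* snv/snv replicates 1 and 2, then WT replicates 1 and 2). *Sox12* and *Sox11* lie above the other genes shown in each library. The dashed line at 31.3 CPM is the median of all 12929 promoter regions.

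**Figure D2:**
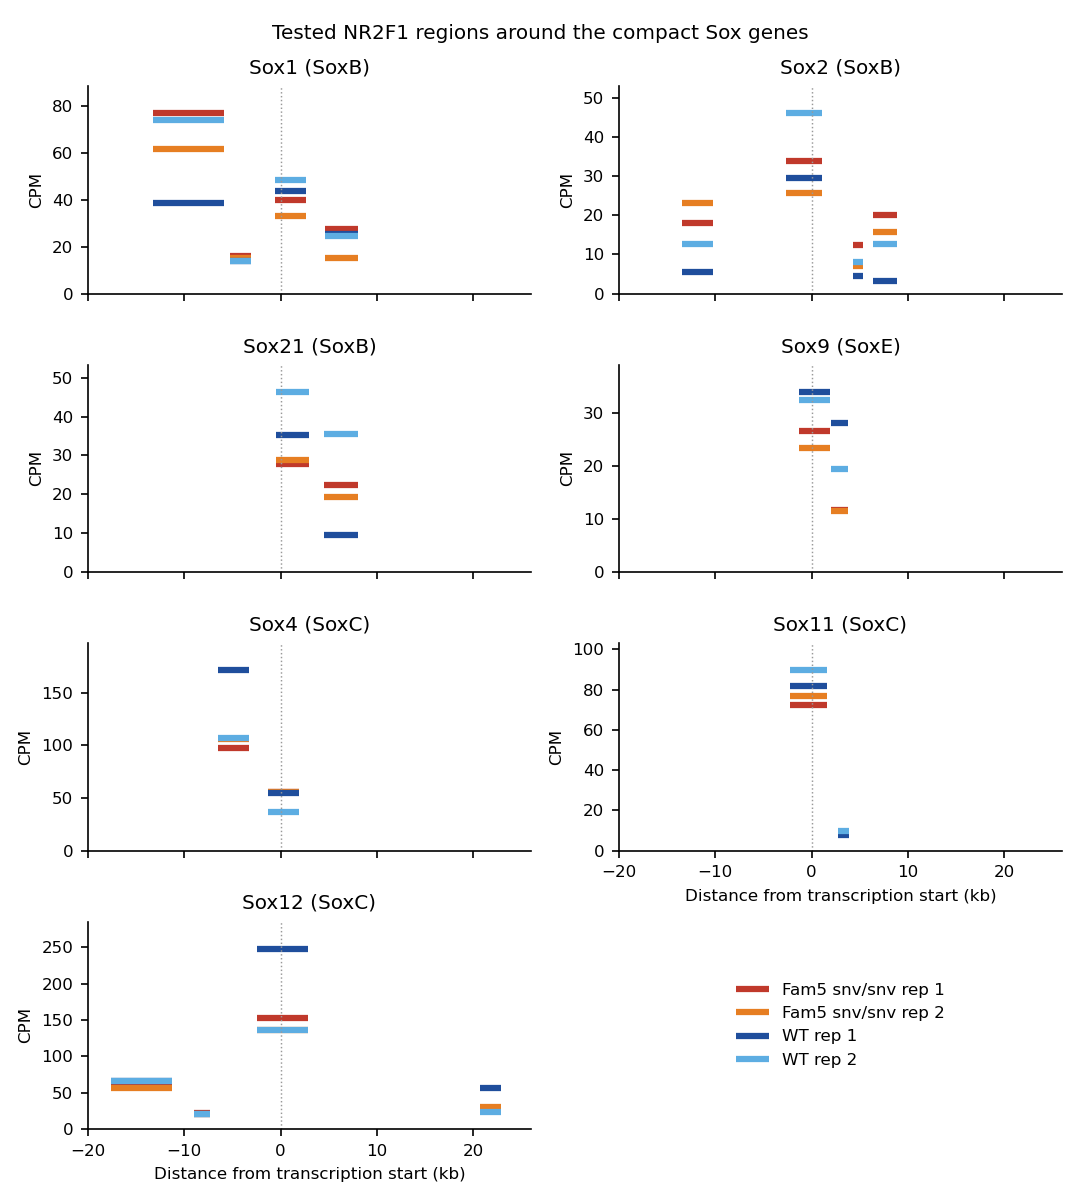
Tested regions around the 7 compact Sox genes, drawn as bars from region start to region end by distance from the transcription start (kb, positive in the direction of transcription), at their level in CPM in each library. The *Sox4* region upstream lies above the *Sox4* promoter region in all 4 libraries, whereas the promoter region is the highest for *Sox11* and *Sox12*.

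The SoxD genes spread their signal over long introns. *Sox5* spans 953553 bp and *Sox6* 567925 bp, against 2057 to 8311 bp for the other 7 genes. Of the 19 tested SoxD regions, 15 lay in introns, 3 over starts and 1 over an exon. Of the cut sites in SoxD windows, 12.9% and 11.3% in *Fam5* snv/snv and 20.7% and 17.9% in WT fell in regions over starts, against 28.5% and 28.0% in *Fam5* snv/snv and 52.0% and 33.5% in WT for SoxB. For SoxC the share was 51.7% and 47.9% in *Fam5* snv/snv and 54.4% and 47.2% in WT.

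The *Sox5* region of highest mean level was intronic (chr6:144494858-144497611), 285290 bp from the nearest coding start. It had 59.6 and 48.8 CPM in *Fam5* snv/snv and 46.6 and 23.6 CPM in WT, and it held 6 cores. Its cut sites were 2.38 and 1.79 times those of the *Sox5* promoter region in *Fam5* snv/snv and 1.58 and 0.779 times in WT, so in WT replicate 2 it was the lower. Per kb of called peak the ratio was 2.50 and 1.67 in *Fam5* snv/snv and 1.68 and 1.27 in WT. For *Sox6* the highest region away from a start was an intronic one (chr7:115567779-115569640) with 22.7 and 12.8 CPM in *Fam5* snv/snv and 7.01 and 19.0 CPM in WT. The libraries of each genotype differed there by more than the genotypes did.

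**Figure D3:**
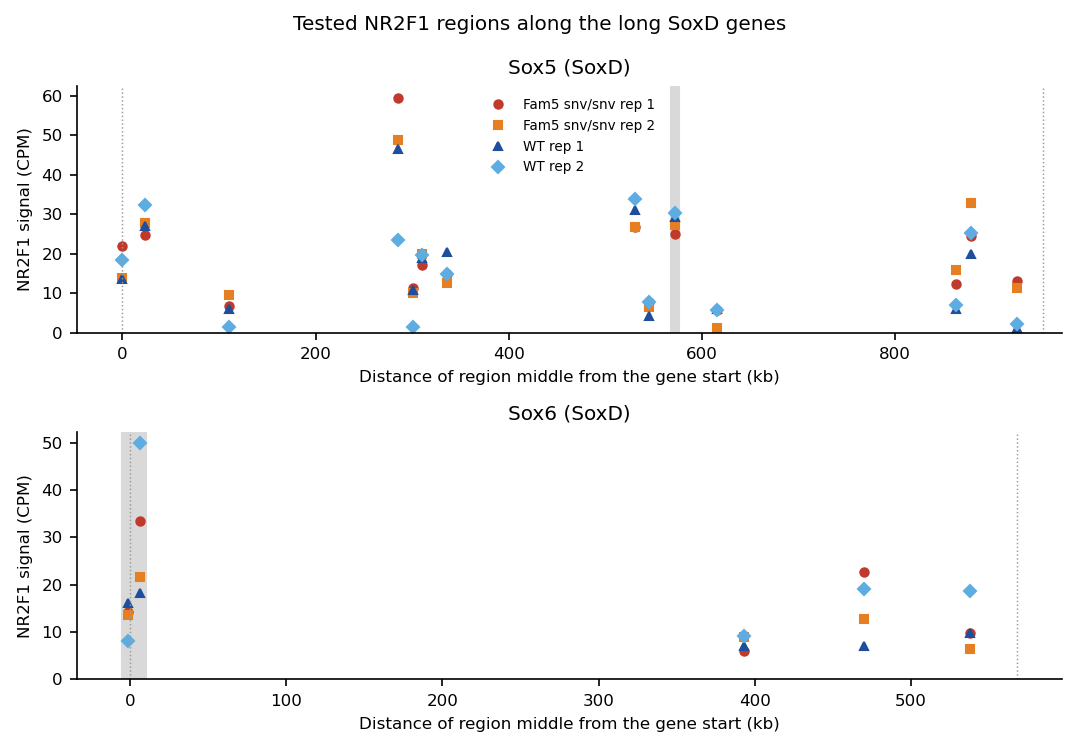
NR2F1 signal (CPM) of each tested region of *Sox5* and *Sox6* against the distance of its middle from the annotated gene start (kb), with 1 point per library. Grey bands mark regions over a coding start and dotted lines the ends of the gene, and the *Sox5* region of highest mean level lies away from the bands.

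By whole window, NR2F1 signal over SoxC genes exceeded that over SoxB genes. In CPM per 100 kb of window and over all called peaks, SoxC had 395 and 407 in *Fam5* snv/snv and 515 and 404 in WT. SoxB had 272 and 240.1 in *Fam5* snv/snv and 159.8 and 322 in WT. The ratio within a library averaged 1.78-fold (log2 0.83 ± 0.60, SD, n = 4 libraries), between 1.26-fold and 3.22-fold, and lay above 1 in 4 of 4. WT replicate 1, where SoxB peaks covered 8.03% of the windows against 28.3% in WT replicate 2 and 31.6% and 32.8% in *Fam5* snv/snv, gave the largest ratio, and without it the mean log2 ratio was 0.54. Per kb of called peak the mean ratio was 2.01-fold (1.62 to 2.34) and at own promoters 2.73-fold (1.86 to 3.55), again above 1 in 4 of 4 libraries. The classes overlapped gene by gene, since the *Sox11* window averaged 225 CPM per 100 kb, between *Sox2* at 268 and *Sox21* at 141, while *Sox12* and *Sox4* averaged 666 and 417 and *Sox1* 335. The *Sox12* window also holds the promoters of *Nrsn2* and *Zcchc3*, and with regions over promoters of other genes left out the mean log2 ratio was 0.57.

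The other groups depended on the measure. *Sox9* had 85.3 and 109 CPM per 100 kb in *Fam5* snv/snv and 136 and 123 in WT, a mean of 0.464 times the SoxB level, below 1 in 4 of 4 libraries. Per kb of called peak it was 0.996 times SoxB, and 3 of 4 libraries lay above 1. SoxD had 35.2 and 34.6 CPM per 100 kb in *Fam5* snv/snv and 19.2 and 30.8 in WT, 0.121 times SoxB on average. Per kb of called peak it was 1.05 times SoxB, with 2 libraries above 1 and 2 below. At the promoter region of each gene it was 0.798 times SoxB (0.658 to 0.866), below 1 in 4 of 4 libraries, and with both *Sox6* regions over starts added up it was 0.987 times, with 2 libraries above 1 and 2 below. Called peaks covered 3.99% and 4.78% of the SoxD windows in *Fam5* snv/snv and 0.760% and 2.87% in WT, a smaller share than in the SoxB windows in each library.

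**Figure D4:**
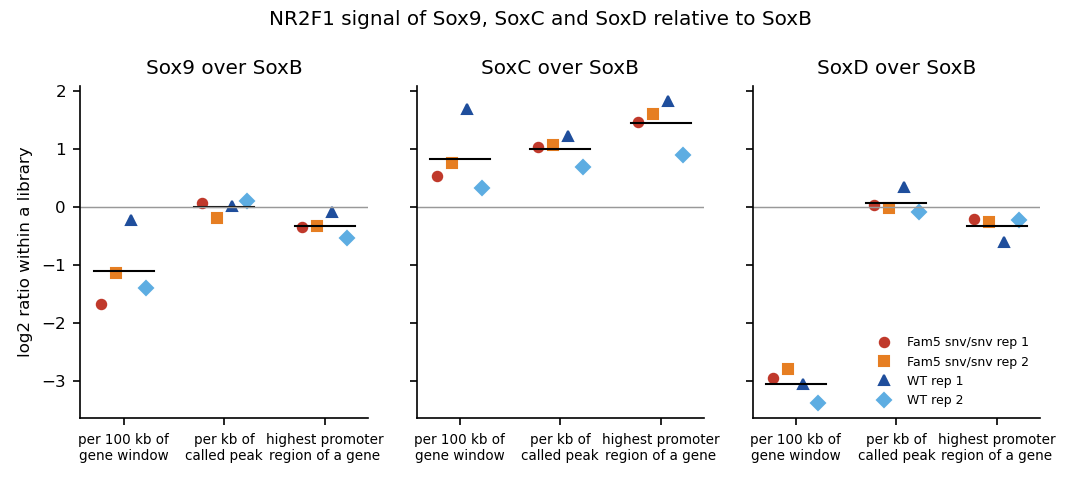
Log2 ratio of NR2F1 signal of *Sox9*, SoxC and SoxD to SoxB within each library, by 3 measures (per 100 kb of gene window, per kb of called peak, at the highest promoter region of each gene), with 1 point per library and a line at the mean. SoxC lies above 0 in all 4 libraries by these 3 measures, and SoxD lies below 0 in all 4 libraries per 100 kb of window and at promoter regions but on both sides of 0 per kb of called peak.

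Among all 21897 protein-coding genes ranked by CPM per 100 kb of window, *Sox12* was at 401 (top 1.83%), *Sox4* at 1461, *Sox1* at 2158, *Sox2* at 3069 and *Sox11* at 3894. *Sox21* and *Sox9* were at 6483 and 7887, and *Sox5* and *Sox6* at 13724 and 15502, below the median gene, which had 65.7 CPM per 100 kb. Neighbouring genes share regions in these windows, so ranks are a description.

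Of 11 other Sox genes, 8 had a tested promoter region (*Sox14*, *Sox7* and *Sry* did not), with a median of 24.5 CPM. *Sox8*, the SoxE relative of *Sox9*, had the most, with 199 and 182 CPM in *Fam5* snv/snv and 218 and 171 CPM in WT, above *Sox12* in 3 of 4 libraries. *Sox18*, an endothelial factor, followed with 88.6 and 88.1 CPM in *Fam5* snv/snv and 65.2 and 53.5 CPM in WT. *Sox3*, a SoxB relative of *Sox1* and *Sox2*, had the least, 2.46 and 7.33 CPM in *Fam5* snv/snv and 5.26 and 4.92 CPM in WT, and *Sox15* had 12.3 and 11.8 CPM in *Fam5* snv/snv and 16.5 and 17.9 CPM in WT. These are totals over regions of unlike width, 16798 bp at *Sox8*, 11520 bp at *Sox18* and 1068 bp at *Sox3*, against 5320 bp at *Sox12*. Promoters of a neural progenitor list (15 of 16 tested, without *Slc1a3*) had a median of 93.6 CPM. Those of a neuronal list (16 of 16) had one of 55.4 CPM.

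Between genotypes, edgeR called no Sox region or window with all 4 libraries. The edgeR quasi-likelihood test called 0 of 39 Sox regions at a Benjamini-Hochberg adjusted p under 0.05, against a background of 0% of 35770 tested regions. The smallest adjusted p of a Sox region was 0.573. At an unadjusted p under 0.05, 3 Sox regions were above WT, against 5.29% of all regions, and 1 was below, against 3.37%. Both *Fam5* snv/snv libraries lay above both WT libraries at 8 Sox regions (background 23.2%) and below both at 11 (background 21.4%). The median log2 fold change of the 39 was -0.11, beside 0.02 for all tested regions. DESeq2 called 1 Sox region higher and 0 lower, against 1.02% and 0.542% of all. Without WT replicate 1, edgeR called 3 of 39 Sox regions, all higher (background 5.34%), and without WT replicate 2 it called 8, of which 4 were higher and 4 lower (background 17.7%). These fits leave 1 WT library, whose spread is then taken to be that between the *Fam5* snv/snv libraries.

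At promoters, 5 of the 9 Sox genes had both *Fam5* snv/snv libraries below both WT libraries (*Sox1*, *Sox21*, *Sox9*, *Sox11* and *Sox5*) and 1 had both above (*Sox4*). Over all promoter regions these shares were 41.3% and 8.59%. The median log2 fold change was -0.34 for the 9 and -0.23 for all promoter regions. The other 3 Sox promoters overlapped between genotypes, and no promoter was called by edgeR (the smallest adjusted p of a Sox promoter was 0.589). Of the neural progenitor promoters, 8 of 15 were below in both *Fam5* snv/snv libraries and 0 above, and of the neuronal ones 5 of 16 were below and 2 above.

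The 3 Sox regions of smallest p above WT were in *Sox5* and upstream of *Sox2*. The first, in a *Sox5* intron (chr6:143854590-143856500), had 13.1 and 11.3 CPM in *Fam5* snv/snv and 1.05 and 2.11 CPM in WT, from 96 and 89 cut sites in *Fam5* snv/snv and 3 and 6 in WT. Its log2 fold change was 2.93 (SE 0.66, edgeR adjusted p = 0.573), and it is the region DESeq2 called (DESeq2 adjusted p = 0.0158). Called peaks covered 1564 and 1158 bp of it in *Fam5* snv/snv and 38 and 351 bp in WT, so the WT libraries counted only part of the region, and the part of peak width in the difference was not tested. The second (chr3:34636964-34640180, 10225 bp or more upstream of *Sox2*) had 17.9 and 23.1 CPM in *Fam5* snv/snv and 5.61 and 12.7 CPM in WT, with a log2 fold change of 1.17 (SE 0.47, edgeR adjusted p = 0.574). It was 1.87 without WT replicate 2, where edgeR called it (adjusted p = 0.0076), and 0.69 without WT replicate 1, where it did not. Its called peaks covered 2276 and 3217 bp in *Fam5* snv/snv and 338 and 1501 bp in WT. The third, in another *Sox5* intron (chr6:143918213-143919300), had 12.3 and 15.8 CPM in *Fam5* snv/snv and 5.96 and 7.03 CPM in WT, with a log2 fold change of 1.11 (SE 0.45, edgeR adjusted p = 0.574). In all 3 regions the genotypes did not overlap, which follows closely from choosing them by smallest p. Of all tested regions, 23.2% had both *Fam5* snv/snv libraries above both WT libraries. The peaks of both WT libraries were narrower in all 3.

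The 3 of smallest p below WT were at *Sox9*, *Sox21* and *Sox4*. The *Sox9* region within the gene (chr11:112784201-112785976) had 11.8 and 11.5 CPM in *Fam5* snv/snv and 28.0 and 19.3 CPM in WT. Its log2 fold change was -1.02 (SE 0.35, edgeR adjusted p = 0.573), and its called peaks were of like width, 1207 and 1117 bp in *Fam5* snv/snv and 1284 and 1414 bp in WT. Without WT replicate 2, edgeR called it (log2 fold change -1.27, adjusted p = 0.0157), and without WT replicate 1 the value was -0.74 and not called. The *Sox21* promoter region had a log2 fold change of -0.53 (SE 0.24, edgeR adjusted p = 0.589), and the *Sox4* upstream region one of -0.46 (SE 0.27, edgeR adjusted p = 0.623). For the *Sox4* region, WT replicate 1 at 172 CPM stood above the other 3 libraries, which lay between 97.5 and 107 CPM. Its value was -0.76 without WT replicate 2 (edgeR adjusted p = 0.0026) and -0.08 without WT replicate 1.

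In the test of gene windows, cut sites of the tested regions of a window were added up, fitted over 16315 windows and scaled to them. None of the 9 Sox windows was called at an adjusted p under 0.05, against a background of 0% of windows. At an unadjusted p under 0.05, 1 was above WT (*Sox5*, background 6.39%) and 1 below (*Sox9*, background 3.4%). The same pair were the windows whose genotypes did not overlap, where the background was 21.5% above and 21.3% below. The *Sox9* window includes its promoter region, and 41.3% of all promoter regions lay below in the same way. The median over all windows was -0.01, and CPM here are scaled over windows, so they differ from region levels. DESeq2 gave an adjusted p to 7 of the 9 windows and called none of them.

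*Sox5* had 170.2 and 170.2 CPM in *Fam5* snv/snv and 135 and 131 CPM in WT by window, with a log2 fold change of 0.36 (95% interval 0.07 to 0.65, edgeR adjusted p = 0.443). It was called when either WT library was left out, at 0.38 (adjusted p = 0.0202) without WT replicate 1 and 0.34 (adjusted p = 0.0239) without WT replicate 2. It was 0.04 over regions that peaks covered to at least 50% in each library, and 0.08 when scaled by all cut sites in peaks, on a scale where the median window stood at -0.28. *Sox9* had 24.0 and 22.5 CPM in *Fam5* snv/snv and 34.7 and 30.3 CPM in WT, with a log2 fold change of -0.48 (interval -0.92 to -0.04, edgeR adjusted p = 0.490), and it was called without WT replicate 2 (-0.58, adjusted p = 0.0427). Scaled by the number of barcodes it was 0.35, on a scale where the median window stood at 0.80. The intervals of the other 7 windows included 0.

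*Sox2* had 52.9 and 46.1 CPM in *Fam5* snv/snv and 23.9 and 46.5 CPM in WT by window (log2 fold change 0.49, interval -0.11 to 1.10). WT replicate 1 was the low library, and the fold change was 1.05 without WT replicate 2 (adjusted p = 1.5e-05) and 0.09 without WT replicate 1. *Sox21* had 31.5 and 31.1 CPM in *Fam5* snv/snv and 25.1 and 48.0 CPM in WT (-0.22, interval -0.83 to 0.39), with -0.62 (adjusted p = 0.0249) without WT replicate 1 and 0.32 without WT replicate 2. The WT libraries of *Sox2* and *Sox21* thus lay farther from each other than the genotype means did.

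*Sox1* had 100.2 and 80.6 CPM in *Fam5* snv/snv and 67.8 and 94.1 CPM in WT (0.16, interval -0.26 to 0.58). *Sox6* had 54.1 and 40.6 CPM in *Fam5* snv/snv and 32.5 and 61.4 CPM in WT (0.01, interval -0.60 to 0.63). Both were called without WT replicate 2, at 0.41 (adjusted p = 0.0281) and 0.54 (adjusted p = 0.0327), and turned to -0.06 and -0.38 without WT replicate 1, where neither was called.

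Of the SoxC windows, *Sox4* had 96.4 and 104 CPM in *Fam5* snv/snv and 127 and 84.0 CPM in WT (-0.07, interval -0.50 to 0.35). *Sox11* had 51.2 and 55.2 CPM in *Fam5* snv/snv and 50.2 and 58.3 CPM in WT (-0.03, interval -0.38 to 0.32). *Sox12* had 164 and 157 CPM in *Fam5* snv/snv and 219 and 144 CPM in WT (-0.18, interval -0.61 to 0.24). *Sox4* and *Sox12* were called without WT replicate 2, at -0.34 (adjusted p = 0.0400) and -0.45 (adjusted p = 4.5e-04), and stood at 0.25 and 0.15 without WT replicate 1. In all, 7 of the 9 windows were called without WT replicate 2, against a background of 19.5%, and 2 without WT replicate 1, against 6.96%, and for 6 of the 9 windows the direction turned with the WT library kept. *Sox5* was called with either WT library left out and *Sox11* with neither.

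**Figure D5:**
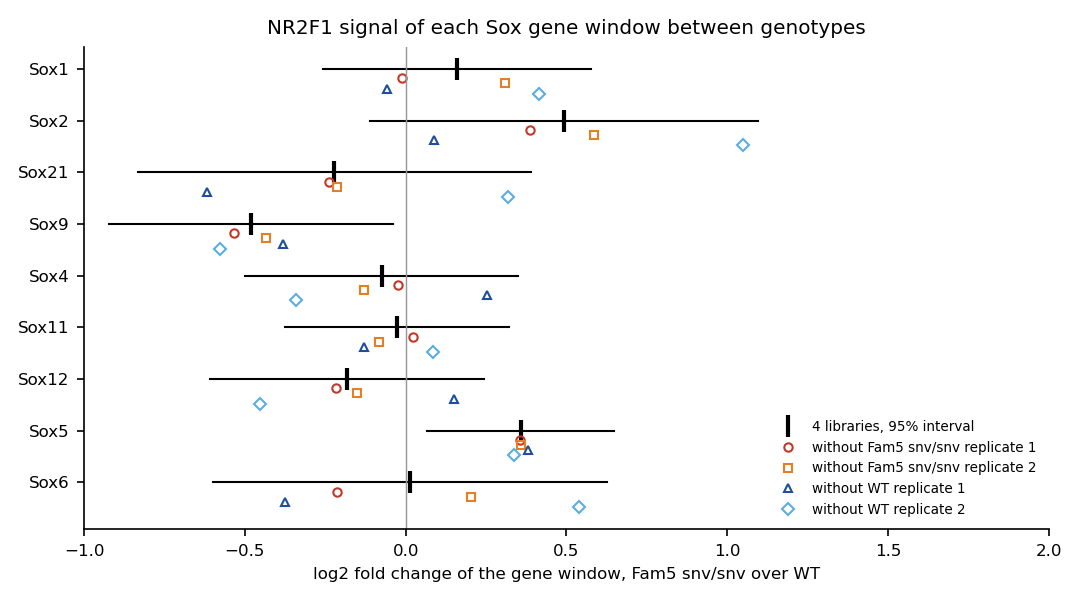
Log2 fold change of each Sox gene window, *Fam5* snv/snv over WT, with all 4 libraries (tick and 95% interval) and with each library left out in turn (open symbols). The *Sox9* and *Sox5* values keep their side of 0 in every fit shown, and the *Sox2* value does too, while the other 6 cross or reach it.

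By class, on the region scale, the tested regions of SoxB had 294 and 245 CPM in *Fam5* snv/snv and 209 and 322 CPM in WT, a log2 difference of 0.05. *Sox9* had 38.3 and 34.9 CPM in *Fam5* snv/snv and 62.0 and 51.7 CPM in WT (-0.63), the only class whose genotypes did not overlap. This class is 1 gene with 2 tested regions, the same regions as in its window. Of all gene windows, 21.3% had both *Fam5* snv/snv libraries below both WT libraries. The same held for 41.3% of all promoter regions, and 1 of the 2 *Sox9* regions is its promoter region. SoxC had 496 and 489.8 CPM in *Fam5* snv/snv and 708 and 489.2 CPM in WT (-0.26), and SoxD had 357 and 327 CPM in *Fam5* snv/snv and 299 and 328 CPM in WT (0.13). The pooled SD between libraries of a genotype was 0.34 for SoxB, 0.15 for *Sox9*, 0.27 for SoxC and 0.09 for SoxD on the log2 scale. No p is given for a class, and an exact permutation test of 2 against 2 libraries cannot go below p = 0.333.

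Per cell, the classes kept the order of their summed CPM over tested regions. Both measures draw on the same cut sites, so the like order is not separate evidence. Each barcode was thinned to 500 cut sites, and 433 barcodes of WT replicate 1 with fewer were left out and none of the other libraries. A cut site in a tested SoxC region was then found in 16.8% and 14.6% of barcodes in *Fam5* snv/snv and 20.9% and 15.9% in WT. For SoxD the share was 12.4% and 10.9% in *Fam5* snv/snv and 9.96% and 10.6% in WT. For SoxB it was 10.2% and 7.45% in *Fam5* snv/snv and 6.73% and 9.08% in WT. For *Sox9* it was found in 36 of 2274 and 33 of 2740 barcodes in *Fam5* snv/snv and in 41 of 2139 and 16 of 1377 in WT. Exact 95% binomial intervals, which cover counting error only, ran from 15.2% to 18.4% and from 13.3% to 15.9% for SoxC in *Fam5* snv/snv and from 19.1% to 22.6% and from 14.0% to 17.9% in WT. Without thinning the SoxC share was 45.3% and 43.9% in *Fam5* snv/snv and 27.9% and 35.0% in WT, lower in the shallower WT libraries. No cell type was named, so these shares do not separate progenitors from neurons.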

How the data were processed

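Anti-NR2F1 single-cell CUT&Tag libraries (2 *Fam5* snv/snv, 2 WT, each a pool of embryos) were analysed. The authors deposited for each library the called peaks, the cell barcodes and raw cut-site counts (whole numbers) for every peak in every barcode. Peaks were called separately per library with Cell Ranger ATAC on mm10. The study's methods and the matrix header give different versions of this tool (the header gives 1.2.0). Counts exist only inside a library's own peaks, so wider peaks count more of the same DNA.

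Counts were summed over barcodes per library, since cells are not replicates; cells were not filtered further, called for doublets or clustered. Genes and starts came from GENCODE M21. Merged regions and gene windows were tested for *Fam5* snv/snv over WT by the quasi-likelihood test of edgeR 4.0.16 under R 4.3.3, with TMM scaling and without a block. Benjamini-Hochberg adjustment ran over all regions or windows, and DESeq2 1.42.0 was an alternative. Scripts were tested on simulated data. The tested regions held 7167305 and 7662318 cut sites in *Fam5* snv/snv and 3068305 and 2786516 in WT, the common biological coefficient of variation was 0.305 and the residual degrees of freedom were 2. The study calls the libraries biological replicates.

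Named regions were those over a start of a member, the highest away from its starts for each member, and the 3 of smallest p in each direction. The members and lists were chosen with earlier results of these data known. The sum over the motor neuron list is not reported here. Alternatives were another tool, filters, peak extent, barcodes as the unit, other scalings, windows with 5 or 50 kb on either side, single libraries left out and a replicate block.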

Additional observations from a re-analysis of the deposited data

How the results depend on the processing

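With all 4 libraries, edgeR called 0 regions and 0 windows in the genome. DESeq2 called 560 regions (1 of them at a Sox gene) and 29 windows, regions covered to at least 50% gave 18 regions, and scaling by all cut sites gave 12 windows. Leaving out 1 library gave 0 to 6315 regions, 0 to 8 Sox regions and 0 to 3176 windows. The replicate block gave 12 windows (10 higher, 2 lower) and 0 regions, and called no Sox region or window; deviations of same-numbered libraries correlated at 0.03 and no label says what the numbers share, so they are not taken as pairs. Scaling by the number of barcodes moved the median log2 fold change to 0.97 for regions and 0.80 for windows, and turned the windows of *Sox21* (0.47), *Sox9* (0.35), *Sox4* (0.81), *Sox11* (0.75) and *Sox12* (0.71) and the named regions of *Sox9* (0.0026), *Sox21* (0.37) and *Sox4* (0.59). The *Sox1* window turned to -0.027 over regions covered to at least 50% and to -0.088 under cut-site scaling, where the median window was -0.28, and *Sox6* to -0.22 under that scaling and to -0.0066 with barcodes as the unit. *Sox11* was 0.0021 over all merged regions past the count minimum. With 1 library left out, window values ran from -0.058 to 0.41 for *Sox1*, -0.62 to 0.32 for *Sox21*, -0.34 to 0.25 for *Sox4*, -0.13 to 0.086 for *Sox11*, -0.45 to 0.15 for *Sox12* and -0.38 to 0.54 for *Sox6*. Between genotypes, class differences under barcode-number scaling were 1.06 (SoxB), 0.38 (*Sox9*), 0.75 (SoxC) and 1.13 (SoxD). *Sox9* was -0.47 with barcodes as the unit and -0.22 with 50 kb on either side, and SoxD was 0.51 over all merged regions and 0.0070 under cut-site scaling. Log2 ratios to SoxB moved to -0.0064 per kb of called peak and -0.33 at promoters for *Sox9*, to 1.45 at promoters for SoxC, and for SoxD to 0.070 per kb of called peak, -0.019 at promoters with both *Sox6* regions added, -0.33 at the highest promoter region of each gene, -3.99 with 5 kb and -2.22 with 50 kb on either side. The value at the highest promoter regions and the shares of barcodes without thinning are alternatives chosen after seeing the data. Mean unthinned shares were 23.3% (SoxB), 4.58% (*Sox9*), 38.0% (SoxC) and 27.9% (SoxD). The cause of these changes was not tested. Peaks were called per library, so depth limits which regions could be compared.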

Other observations

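Signal at the classes was read together in single barcodes after thinning to 500 cut sites. Barcodes with a cut site at both SoxB and SoxC numbered 41 and 24 in *Fam5* snv/snv and 31 and 18 in WT, which is 1.05 and 0.808 times the number expected from the separate shares in *Fam5* snv/snv and 1.03 and 0.905 times in WT. For SoxC and SoxD the numbers were 51 and 41 in *Fam5* snv/snv and 42 and 36 in WT, or 1.08 and 0.939 times expected in *Fam5* snv/snv and 0.946 and 1.55 times in WT. For SoxB and SoxD they were 30 and 27 in *Fam5* snv/snv and 11 and 18 in WT, or 1.04 and 1.21 times expected in *Fam5* snv/snv and 0.767 and 1.36 times in WT. SoxB and *Sox9* were found together in 7 and 5 barcodes in *Fam5* snv/snv and 4 and 2 in WT, above the expected number in 4 of 4 libraries but on few barcodes, and of the 6 pairs of classes this was the only one above it in every library. These counts are descriptions of barcodes within a library, with no test.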
